A study of Mus musculus with 30 samples.

Results

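Entpd1, Nt5e, Ada, Dpp4, Adora2a and P2rx7 are 6 genes of extracellular purine metabolism and adenosine sensing, taken by symbol from the 23420 gene rows of each deposited table. All 6 had enough counts to be tested. They were measured by RNA-seq in 30 libraries of CD4 T cells from C57BL/6 mice, every one of which carried 2 reporters, Foxp3-GFP and IL-10 Thy1.1. Naive GFP-negative CD4 cells were activated for 72 h with soluble anti-CD3 (2.5 ug/ml), 6 irradiated feeder splenocytes without CD4 T cells being added for each T cell. Th1 cultures received IL-12 at 20 ng/ml and Th2 cultures IL-4 at 20 ng/ml. Non-pathogenic Th17 cultures, called Th17 here, received TGF-beta 1 (2 ng/ml) plus IL-6 (25 ng/ml). The pathogenic form, called pTh17, had IL-6 (25 ng/ml) together with IL-1 beta and IL-23 (20 ng/ml each), and Tr1 cultures had IL-27 (25 ng/ml). From each culture, live GFP-negative TCR-beta positive CD4 cells were sorted into an IL-10 positive and an IL-10 negative compartment, and 2000 cells were lysed per library. This gave 10 groups of 3 libraries (n = 3 for every group below). The sort follows the Thy1.1 reporter of the Il10 gene rather than the cytokine itself, and the protocol text gives Thy1.1 positive for both compartments, so the titles and source names were followed. Nothing in the labels says whether the 3 libraries of a group were grown separately or come from different animals. The p-values therefore speak only for the spread among those libraries.

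As background, cells release ATP when stressed, damaged or activated, and ATP outside the cell acts as a danger signal. CD39, the product of Entpd1, is a membrane enzyme that cuts ATP and ADP down to AMP, and CD73, the product of Nt5e, then turns AMP into adenosine. Adenosine binds the A2a receptor (Adora2a), which raises cyclic AMP in T cells and dampens their activation. Adenosine deaminase (Ada) removes adenosine by converting it to inosine. CD26 (Dpp4) is a surface peptidase which, in human cells, also anchors adenosine deaminase at the membrane. P2X7 (P2rx7) is an ion channel opened by extracellular ATP, and on mouse T cells it can also be triggered when the ectoenzyme ART2.2 (Art2b) modifies it with ADP-ribose taken from NAD. CD39 and CD73 together are best known on regulatory T cells, where they are regarded as a route to immune suppression.

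The genes lie on 5 chromosomes of mm10. Entpd1 spans chr19:40612366-40741602 on the plus strand, Nt5e spans chr9:88327197-88372092 (plus), and Ada spans chr2:163726584-163750239 (minus). Dpp4 spans chr2:62330073-62412231 (minus), Adora2a chr10:75316877-75334784 (plus) and P2rx7 chr5:122643911-122691432 (plus). RefSeq (GRCm38.p6) gave promoter windows for 5 of the 6 genes. The 250 bases before the start site are printed for Entpd1, Ada and Dpp4, because Entpd1 and Ada were higher and Dpp4 lower in the IL-10 positive compartment of most cultures and because these windows overlap no annotated exon. The Entpd1 window, chr19:40659520-40659769 on the plus strand, precedes the start of the single transcript that the deposited tables list and lies in an intron of a longer annotated transcript. The Ada window is chr2:163750240-163750489 and the Dpp4 window is chr2:62412232-62412481, both on the minus strand. Each is written 5′ to 3′ and capitals mark a motif match:
Entpd1: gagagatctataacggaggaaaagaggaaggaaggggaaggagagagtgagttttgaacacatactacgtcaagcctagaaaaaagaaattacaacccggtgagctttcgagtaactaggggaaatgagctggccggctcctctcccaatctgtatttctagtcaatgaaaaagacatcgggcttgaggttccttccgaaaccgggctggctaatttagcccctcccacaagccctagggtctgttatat
Ada: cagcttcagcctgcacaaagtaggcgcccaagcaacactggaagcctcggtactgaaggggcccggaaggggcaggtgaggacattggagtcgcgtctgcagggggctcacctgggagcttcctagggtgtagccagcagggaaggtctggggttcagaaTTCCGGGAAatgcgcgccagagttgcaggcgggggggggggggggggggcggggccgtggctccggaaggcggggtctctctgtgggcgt
Dpp4: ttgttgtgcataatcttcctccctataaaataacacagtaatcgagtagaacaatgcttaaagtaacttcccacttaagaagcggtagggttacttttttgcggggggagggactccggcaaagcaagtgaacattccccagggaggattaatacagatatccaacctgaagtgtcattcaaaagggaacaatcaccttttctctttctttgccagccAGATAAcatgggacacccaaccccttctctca

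Matches were searched on both strands for 5 motifs, the STAT motif TTCNNNGAA, the aryl hydrocarbon receptor core GCGTG, the AP-1 motif TGANTCA, the cyclic AMP response element TGACGTCA and the GATA motif AGATAA. The printed Entpd1 window held none of them, with 47.2% G or C and 8 CG pairs. A second Entpd1 window, chr19:40612116-40612365, lies before the start of the longer transcript over an annotated exon and is not printed. It had 62.4% G or C and 18 CG pairs and held 1 match to the aryl hydrocarbon receptor core, 18 bases before that start. The Ada window was richer in G and C (67.2%, 14 CG pairs) and held 1 STAT match, whose first base is 90 bases before the start. The Dpp4 window (43.6%, 4 CG pairs) held 1 GATA match, 32 bases before the start. Among 32851 mouse promoter windows of the same length, 7.02% held the STAT motif, 28.2% the aryl hydrocarbon receptor core, 6.75% the AP-1 motif, 1.55% the cyclic AMP response element and 9.99% the GATA motif. A match describes letters in this window and not a bound site.

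Total expected counts ran from 4394704 to 11850597 per library. The Th17 IL-10 negative libraries (5695832 to 5915474) were shallower than the positive ones (9410288 to 9774881). Mean Il10 was higher in every positive group, going from 7.83 to 510 TPM (a level scaled for library size and transcript length) between the compartments in Th1, 93.0 to 1152 TPM in Th2, 3.11 to 39.4 TPM in Th17, 1.11 to 76.8 TPM in pTh17 and 0.733 to 70.3 TPM in Tr1, the direction the labels give. Foxp3 did not exceed a group mean of 1.53 TPM, in Th17 negative libraries, and fell to 0.497 TPM in Th17 positive ones (-1.47 ± 0.48, SE, edgeR adjusted p = 0.00863). The sum of 7 T cell markers (Cd3d, Cd3e, Cd3g, Cd4, Cd247, Lck and Thy1) lay between 4050 and 6836 TPM in all libraries. Thy1 is also the gene of the Thy1.1 reporter on which the cells were sorted. Its mean was higher in every positive group, going from 170 to 1206 TPM in Th1 and from 262 to 938 TPM in Th2. Library 18 of the Tr1 positive group stood apart from the other 2 of its group, its chi-square over degrees of freedom against them being 11.3 and 12.4, where those differed by 3.36 and the pairs within other groups by 2.85 to 9.04. Without it the Tr1 differences were 3.60 for Entpd1, 0.45 for Nt5e, 0.51 for Ada, -0.71 for Dpp4, 0.04 for Adora2a and 1.08 for P2rx7 on the log2 scale, and the calls stayed as given, with the uncalled difference of Adora2a changing sign. Levels below are deposited TPM, which divide by transcript length, and so allow genes to be set side by side. Differences between compartments are log2 fold changes of scaled counts from edgeR, positive minus negative, so both scales need not give the same ratio. Libraries are bulk, so fewer cells that express a gene and less RNA per cell cannot be told apart.

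Entpd1, which encodes CD39, was higher in the IL-10 positive compartment of 4 of the 5 cultures, and in Th2 cultures it was high in both compartments. The mean of the 5 differences was 1.85 ± 0.07 (SE, edgeR adjusted p = 3.85e-23, 3.60-fold). In Th1 cultures, Entpd1 stood at 16.6, 14.5 and 16.3 TPM in its negative libraries and 91.3, 89.9 and 87.9 TPM in its positive ones. Every positive library lay far above every negative one, and the gene rose by 2.54 ± 0.11 (SE, edgeR adjusted p = 4.22e-21, 5.81-fold). In Tr1 cultures, Entpd1 stood at 1.31, 0.45 and 1.71 TPM in its negative libraries and 14.7, 14.99 and 15.8 TPM in its positive ones. The compartments were again wholly separate, and Tr1 showed the largest of the 5 differences, 3.69 ± 0.20 (SE, edgeR adjusted p = 1.02e-17, 12.9-fold). The Tr1 negative libraries rest on only 5 to 28 counts each. In pTh17 cultures, Entpd1 stood at 5.90, 6.04 and 5.01 TPM in its negative libraries and 23.3, 20.6 and 17.2 TPM in its positive ones. Here too the groups did not overlap, with a rise of 1.79 ± 0.13 (SE, edgeR adjusted p = 1.07e-13, 3.46-fold). In Th17 cultures, Entpd1 stood at 1.10, 1.77 and 1.95 TPM in its negative libraries and 4.10, 3.17 and 3.44 TPM in its positive ones. These were the lowest positive libraries of any culture, although all lay above their negative counterparts and the gene rose by 1.30 ± 0.23 (SE, edgeR adjusted p = 8.07e-06, 2.46-fold). In Th2 cultures, Entpd1 stood at 66.5, 62.1 and 61.2 TPM in its negative libraries and 60.5, 60.00 and 58.3 TPM in its positive ones. All Th2 libraries were high, the positive ones just below the negative ones without overlap, and the difference of -0.09 ± 0.10 (SE, edgeR adjusted p = 0.590) did not pass the test.

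The annotation lists 3 genes within the span of Entpd1 on the same strand, none with a row in the tables. They are the pseudogenes Gm16027 and Gm8783 and AC166063.1, which is typed as sense intronic. Whether they share exon bases with Entpd1, where their reads could count toward it, was not checked. With limma on log2 (TPM + 1) the Th17 difference of Entpd1 was smaller, at 0.82, and past the threshold. The 5 differences of Entpd1 were not equal (edgeR adjusted p = 2.33e-18). Among IL-10 negative libraries the order of the cultures was Th2, Th1, pTh17, Th17 and Tr1, and each step passed the test except the last, where Th17 exceeded Tr1 by 0.13 ± 0.32 (SE, edgeR adjusted p = 0.786). Among IL-10 positive libraries the order was Th1, Th2, pTh17, Tr1 and Th17, and every step passed. Th1 positive libraries (89.7 ± 1.75 TPM, SD, n = 3) exceeded Th2 positive ones (59.6 ± 1.14 TPM, SD, n = 3) by 0.66 ± 0.10 (SE, edgeR adjusted p = 1.42e-07). The smallest step, pTh17 over Tr1, was 0.43 ± 0.12 (SE, edgeR adjusted p = 0.00281). Group means thus ran from 1.16 TPM in Tr1 negative to 89.7 TPM in Th1 positive libraries, a range of 77.5-fold.

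CD39 and CD73 are also found on B cells and myeloid cells, and transcripts of such cells differed between some compartments. The summed level of 9 B cell markers lay at 177 to 183 TPM in pTh17 negative libraries and at 340.3 to 463 TPM in positive ones, and all 7 tested markers were higher there, Cd79a (B cell receptor chain) going from a mean of 1.09 to 15.7 TPM. In Th1 the same sum lay at 23.2 to 27.2 TPM in negative and at 63.9 to 77.0 TPM in positive libraries. There 2 of 7 markers were higher, and the rise came mostly through the class II gene H2-Ab1 (19.5 to 62.0 TPM). Pax5 was at 0 in both Th1 compartments. Mean levels went from 0.99 to 1.29 TPM for Cd79a and from 0.86 to 1.92 TPM for Cd79b. They went from 1.75 to 5.34 TPM for Cd74 and from 0.72 to 0.35 TPM for Bank1. The B cell sum lay at 9.23 to 11.6 TPM and at 32.8 to 40.3 TPM in Th17 (4 of 7 higher, 1 lower). In Th2 it lay at 56.8 to 67.7 TPM and 71.2 to 93.0 TPM (2 of 7 higher). In Tr1 it overlapped, at 10.3 to 15.8 TPM against 11.8 to 15.8 TPM, with 1 of 7 markers higher and Pax5 at 0 in both compartments. Mean levels there were 2.75 and 2.64 TPM for Cd79b, 1.42 and 1.64 TPM for Bank1, and 0.623 and 0.95 TPM for Ms4a1. A list of 9 myeloid markers, 6 of them tested, summed to 6.51 to 8.41 TPM in Th1 negative and 29.1 to 32.1 TPM in Th1 positive libraries (3 higher, C1qa at 0). Itgam, an integrin chain, made up most of the Th1 sum, with means of 6.76 and 24.1 TPM, while Lyz2, Csf1r, Emr1 and Cd14 did not exceed 0.347 TPM there. The myeloid list summed to 3.51 to 4.51 and 23.7 to 36.8 TPM in pTh17 (3 higher, C1qa at 0 in both compartments). The pTh17 positive means were 11.8 TPM for Tyrobp, 10.3 TPM for Fcer1g and 5.26 TPM for Lyz2. In Tr1 it summed to 2.81 to 3.18 and 6.22 to 8.34 TPM (2 higher), with Itgam at 1.44 and 5.65 TPM. A list of 5 NK cell markers, 3 of them tested, summed to 4.14 to 4.64 and 43.4 to 45.9 TPM in Th1 (2 higher) and to 3.33 to 4.30 and 35.6 to 38.6 TPM in Tr1 (1 higher). Nearly all of this was Klrk1, an activating receptor, at 3.84 and 43.0 TPM in Th1 and 3.08 and 35.7 TPM in Tr1, while Ncr1 was at 0 in Th1 positive libraries and Klre1 at 0 in both Tr1 compartments. The NK sum was 1.10 to 1.45 and 4.18 to 6.06 TPM in Th17 and 0.14 to 1.25 and 4.25 to 6.60 TPM in pTh17, with Klre1 the main gene in both positive groups, and its highest value in Th2 was 1.78 TPM. Whether B cells, myeloid cells or NK cells remained after the sort on TCR-beta and CD4 was not tested. The part of such cells in the differences of the 6 genes was not tested.

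Both CD8 T cell markers, Cd8a and Cd8b1, were called higher in the positive compartment of Th1, Th2 and Tr1, and neither was called in Th17 or pTh17. Their sum was 24.8 to 32.2 and 33.7 to 40.2 TPM in Th1, 11.5 to 15.1 and 20.5 to 22.3 TPM in Th2 and 31.5 to 35.7 and 49.2 to 60.01 TPM in Tr1, without overlap. In Th17 the sum went the other way, also without overlap, at 13.6 to 18.8 TPM in negative and 8.46 to 13.1 TPM in positive libraries. In pTh17 the ranges overlapped, at 26.2 to 29.6 and 24.2 to 28.0 TPM. Cd8b1 made up most of the sum, Cd8a having a highest group mean of 7.10 TPM. The summed level of 7 regulatory T cell markers lay at 618 to 669 TPM in Th2 negative and 909 to 1017 TPM in Th2 positive libraries (4 higher, 1 lower), and at 879 to 925 and 1101 to 1177 TPM in pTh17 (2 higher, 1 lower). In Th1 it went the other way, from 737 to 763 TPM in negative to 662 to 683 TPM in positive libraries (3 higher, 3 lower), as it did in Th17, at 694 to 774 and 646 to 663 TPM (2 higher, 5 lower), while in Tr1 the compartments overlapped (4 higher, 2 lower). Il2ra, Ctla4 and Folr4, which activated T cells can also express, held most of the sum, Ctla4 going from 147 to 286 TPM in Th2 and from 179 to 426 TPM in pTh17. The part of these markers in the differences of the 6 genes was likewise not tested.

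Nt5e, which encodes CD73, was by far highest in Th17 cultures, and its difference between compartments changed sign with the culture. In Th17 cultures, Nt5e stood at 157, 155 and 173 TPM in its negative libraries and 200, 187 and 206 TPM in its positive ones. All positive libraries exceeded all negative ones, and Nt5e rose by 0.44 ± 0.11 (SE, edgeR adjusted p = 0.000468, 1.36-fold). On the log2 (TPM + 1) scale the Th17 difference was 0.29 and did not pass with limma (adjusted p = 0.205), nor did it on log2 (TPM + 0.1), at 0.29 (adjusted p = 0.356). In Th1 cultures, Nt5e stood at 22.4, 25.3 and 22.8 TPM in its negative libraries and 12.8, 12.03 and 13.6 TPM in its positive ones. Here the order was the opposite, each positive library being below each negative one, with a difference of -0.84 ± 0.13 (SE, edgeR adjusted p = 2.16e-06, 1.79-fold). In pTh17 cultures, Nt5e stood at 4.65, 3.56 and 3.25 TPM in its negative libraries and 1.06, 2.49 and 1.41 TPM in its positive ones. Nt5e also fell there without overlap, at -1.31 ± 0.25 (SE, edgeR adjusted p = 0.000135, 2.47-fold). In Th2 cultures, Nt5e stood at 1.38, 1.30 and 1.72 TPM in its negative libraries and 0.44, 0.47 and 0.22 TPM in its positive ones. Within each compartment the Th2 group mean was the lowest, the positive libraries rested on 5 to 12 counts each, and Nt5e fell, at -1.94 ± 0.35 (SE, edgeR adjusted p = 4.80e-05, 3.82-fold). In Tr1 cultures, Nt5e stood at 3.63, 8.02 and 3.31 TPM in its negative libraries and 5.65, 7.21 and 5.83 TPM in its positive ones. The Tr1 groups overlapped, negative library 17 being the highest of the 6, and the difference of 0.46 ± 0.22 (SE, edgeR adjusted p = 0.103) did not pass. Leaving out that library gave 0.89 (edgeR adjusted p = 0.00144).

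The mean of the 5 Nt5e differences was -0.64 ± 0.10 (SE, edgeR adjusted p = 1.59e-06), but the 5 were unequal (edgeR adjusted p = 1.02e-09), with a rise in Th17 and falls in Th1, Th2 and pTh17. With limma on log2 (TPM + 1) the Th2 difference of Nt5e was smaller, at -0.84 (adjusted p = 0.00255), and so was the mean, at -0.38, both past the threshold. In both compartments the cultures ranked Th17, Th1, Tr1, pTh17 and Th2. Th17 exceeded Th1 by 2.34 ± 0.12 (SE, edgeR adjusted p = 3.53e-19) among negative and by 3.63 ± 0.12 (SE, edgeR adjusted p = 3.30e-25) among positive libraries. Each further step passed except Tr1 over pTh17 in the negative compartment, at 0.18 ± 0.21 (SE, edgeR adjusted p = 0.469). Group means ran from 0.377 TPM in Th2 positive to 198 TPM in Th17 positive libraries, a 525-fold range and the widest of the 6 genes.

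**Figure D1:**
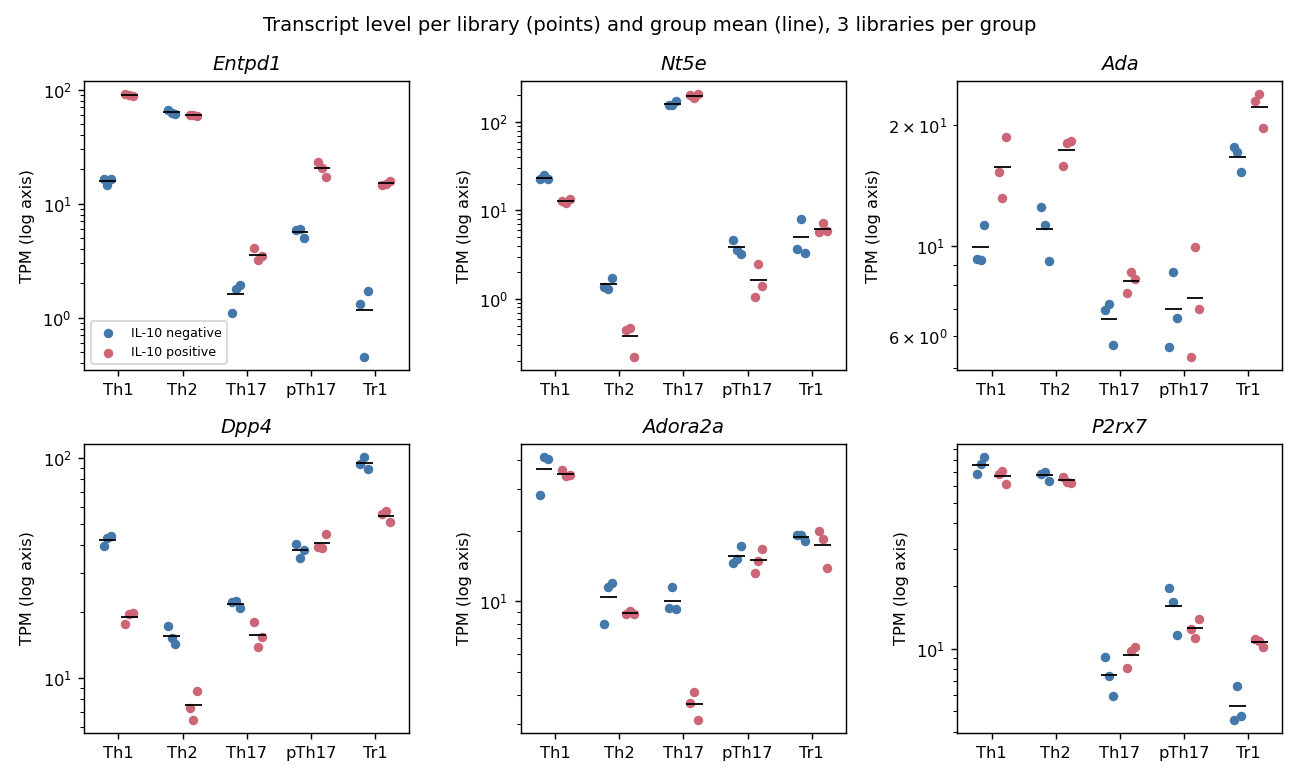
TPM (log axis) of the 6 genes in each of the 30 libraries, by culture, with IL-10 negative libraries in blue and positive ones in red (points, 3 libraries per group; line, group mean). Entpd1 is separated between the compartments in all cultures but is nearly level in Th2, where it lies from 58.3 to 66.5 TPM, and Nt5e stands above 150 TPM in Th17 alone.

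The balance of both ectoenzyme transcripts can be given as the log2 ratio of Entpd1 to Nt5e TPM within a library. It was described and not tested. In Th1 it went from -0.57 ± 0.20 (SD, n = 3) in negative to 2.81 ± 0.11 (SD, n = 3) in positive libraries, that is from 1.49-fold more Nt5e to 7.00-fold more Entpd1. In Tr1 it likewise changed sign, from -2.19 ± 1.72 (SD, n = 3) to 1.29 ± 0.21 (SD, n = 3). In pTh17 Entpd1 was already the more abundant, at 0.58 ± 0.21 (SD, n = 3), and the ratio was 3.71 ± 0.71 (SD, n = 3) in positive libraries. Th2 libraries held a large excess of Entpd1, 5.44 ± 0.25 (SD, n = 3) and 7.38 ± 0.58 (SD, n = 3), whereas Th17 libraries held a large excess of Nt5e, -6.69 ± 0.40 (SD, n = 3) and -5.80 ± 0.17 (SD, n = 3). In each of the 5 cultures the mean ratio was higher in the positive compartment. The cultures nevertheless kept apart: the highest Nt5e libraries had among the lowest Entpd1 levels and the highest Entpd1 libraries had Nt5e at or below 13.6 TPM, as the scatter of Entpd1 against Nt5e by library shows. The Th1 and pTh17 negative groups came closest to equal levels, both with a mean ratio of 1.49-fold, the former toward Nt5e and the latter toward Entpd1.

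**Figure D2:**
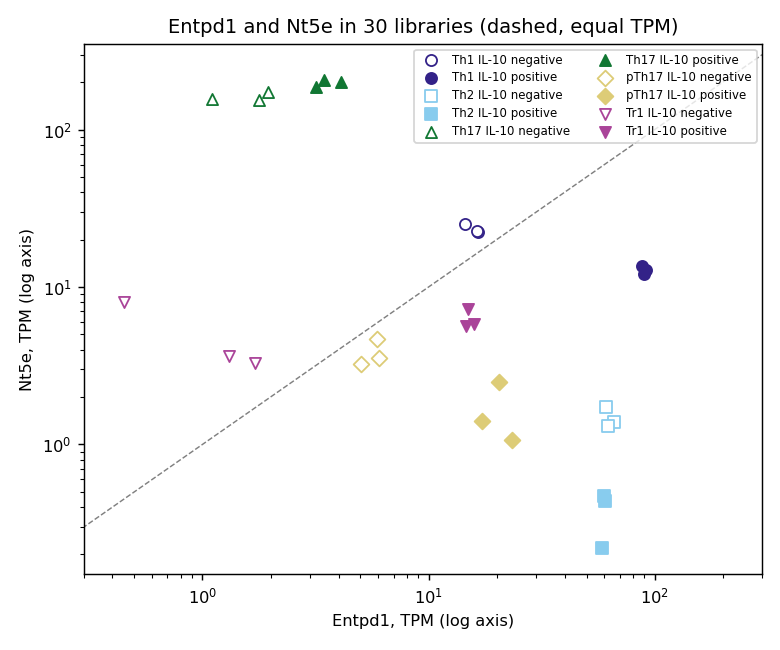
Entpd1 (x axis) against Nt5e (y axis), TPM on log axes, in 30 libraries; symbols mark the culture, open symbols IL-10 negative and filled symbols IL-10 positive libraries, and the dashed line marks equal TPM. Th17 libraries lie high on the left, Th2 libraries low on the right, and Th1 and Tr1 libraries cross the dashed line between the compartments.

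Ada, the enzyme that removes adenosine, varied least of the 6 genes, with group means from 6.62 TPM in Th17 negative to 22.1 TPM in Tr1 positive libraries, a 3.34-fold range. It was modestly higher in IL-10 positive cells, with a mean difference of 0.46 ± 0.08 (SE, edgeR adjusted p = 8.11e-06, 1.37-fold). In Th1 cultures, Ada stood at 9.32, 9.27 and 11.3 TPM in its negative libraries and 15.3, 13.2 and 18.6 TPM in its positive ones. The groups did not overlap and Ada rose by 0.67 ± 0.17 (SE, edgeR adjusted p = 0.00162). In Th2 cultures, Ada stood at 12.5, 11.3 and 9.22 TPM in its negative libraries and 15.8, 17.98 and 18.2 TPM in its positive ones. Again all positive libraries were the higher, with a rise of 0.66 ± 0.15 (SE, edgeR adjusted p = 0.00143). In Tr1 cultures, Ada stood at 17.6, 17.1 and 15.3 TPM in its negative libraries and 22.9, 23.8 and 19.6 TPM in its positive ones. Tr1 held the highest levels of both compartments and Ada rose by 0.49 ± 0.17 (SE, edgeR adjusted p = 0.0250). This call rested on single libraries: without negative library 17 or 18 or positive library 17 the adjusted p was 0.0639, 0.0720 and 0.1004, and with limma on log2 (TPM + 1) it was 0.0650. In Th17 cultures, Ada stood at 6.97, 7.19 and 5.69 TPM in its negative libraries and 7.65, 8.65 and 8.28 TPM in its positive ones. The Th17 positive libraries were all above the negative ones, but the difference of 0.46 ± 0.21 (SE, edgeR adjusted p = 0.0577) narrowly missed the threshold. In pTh17 cultures, Ada stood at 5.65, 8.66 and 6.65 TPM in its negative libraries and 5.32, 9.98 and 6.99 TPM in its positive ones. In pTh17 the groups overlapped and library 14 was the highest of each compartment, with a difference of 0.01 ± 0.20 (SE, edgeR adjusted p = 0.984). A difference among the 5 cultures did not pass the test (edgeR adjusted p = 0.146), and it passed with pTh17 positive library 14 left out (0.0203).

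Tr1 exceeded Th2 in Ada by 0.44 ± 0.17 (SE, edgeR adjusted p = 0.0190) among negative libraries, but among positive ones the step was 0.28 ± 0.16 (SE, edgeR adjusted p = 0.119). Th2 and Th1 did not differ beyond their spread in either compartment, at 0.09 ± 0.18 (SE, edgeR adjusted p = 0.678) and 0.07 ± 0.15 (SE, edgeR adjusted p = 0.700). Both Th17 cultures were lowest. Th1 exceeded pTh17 by 0.57 ± 0.19 (SE, edgeR adjusted p = 0.0110) among negative libraries, and Th1 exceeded Th17 by 1.25 ± 0.17 (SE, edgeR adjusted p = 3.90e-08) among positive ones.

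Dpp4, the gene of CD26, went the other way, being lower in the IL-10 positive compartment of 4 cultures, with a mean difference of -0.64 ± 0.04 (SE, edgeR adjusted p = 1.36e-16, 1.56-fold). In Th1 cultures, Dpp4 stood at 39.8, 43.1 and 44.1 TPM in its negative libraries and 17.7, 19.5 and 19.7 TPM in its positive ones. No libraries overlapped and Dpp4 fell, at -1.13 ± 0.09 (SE, edgeR adjusted p = 2.53e-13, 2.18-fold). In Th2 cultures, Dpp4 stood at 17.2, 15.2 and 14.3 TPM in its negative libraries and 7.32, 6.47 and 8.76 TPM in its positive ones. The differences were of similar size, -1.01 ± 0.10 (SE, edgeR adjusted p = 1.33e-10, 2.01-fold). In Tr1 cultures, Dpp4 stood at 93.96, 101 and 88.9 TPM in its negative libraries and 55.6, 57.3 and 50.9 TPM in its positive ones. Tr1 negative cells had the highest Dpp4 of the study, and the positive libraries were again all lower, at -0.69 ± 0.08 (SE, edgeR adjusted p = 2.37e-08, 1.61-fold). In Th17 cultures, Dpp4 stood at 22.1, 22.3 and 20.8 TPM in its negative libraries and 17.9, 13.8 and 15.3 TPM in its positive ones. The positive libraries were lower without overlap, at -0.41 ± 0.10 (SE, edgeR adjusted p = 0.000389, 1.33-fold). In pTh17 cultures, Dpp4 stood at 40.8, 35.2 and 38.2 TPM in its negative libraries and 39.5, 38.99 and 44.96 TPM in its positive ones. The pTh17 groups overlapped, and the difference of 0.04 ± 0.08 (SE, edgeR adjusted p = 0.820) did not pass. The 5 differences were unequal (edgeR adjusted p = 9.94e-10).

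Among negative libraries Dpp4 ranked Tr1, Th1, pTh17, Th17 and Th2. The steps from Th1 to pTh17, 0.19 ± 0.09 (SE, edgeR adjusted p = 0.0562), and from Th17 to Th2, 0.14 ± 0.10 (SE, edgeR adjusted p = 0.193), did not pass. In TPM the Th17 and Th2 negative libraries did not overlap, with means of 21.7 and 15.6 TPM, so the scales differed for that step. Among positive libraries the order was Tr1, pTh17, Th1, Th17 and Th2, with pTh17 now ahead of Th1 by 0.97 ± 0.09 (SE, edgeR adjusted p = 4.27e-12), and every step passed. An antisense gene, Gm13561, overlaps Dpp4 in the annotation and has no row in the tables. Libraries of this kind do not mark strand. Whether both genes share exon bases, where reads of Gm13561 could count toward Dpp4, was not checked.

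Adora2a, the A2a adenosine receptor, was highest in Th1 cultures and differed between compartments in Th17 cultures, the only one of the 5 comparisons in which it was called. In Th17 cultures, Adora2a stood at 9.40, 11.6 and 9.30 TPM in its negative libraries and 3.69, 4.11 and 3.14 TPM in its positive ones. The positive libraries were all far below the negative ones, a difference of -1.31 ± 0.19 (SE, edgeR adjusted p = 1.57e-07, 2.48-fold). In Th1 cultures, Adora2a stood at 28.5, 41.1 and 40.2 TPM in its negative libraries and 36.1, 33.9 and 34.3 TPM in its positive ones. The Th1 groups overlapped, library 4 being the lowest of the negative ones, and the difference was -0.05 ± 0.12 (SE, edgeR adjusted p = 0.786). In Tr1 cultures, Adora2a stood at 19.2, 19.2 and 18.1 TPM in its negative libraries and 19.8, 18.4 and 13.9 TPM in its positive ones. These overlapped too, at -0.05 ± 0.15 (SE, edgeR adjusted p = 0.854). In pTh17 cultures, Adora2a stood at 14.5, 15.1 and 17.2 TPM in its negative libraries and 13.2, 14.9 and 16.7 TPM in its positive ones. The difference of -0.15 ± 0.14 (SE, edgeR adjusted p = 0.544) was within the spread. In Th2 cultures, Adora2a stood at 7.98, 11.5 and 11.96 TPM in its negative libraries and 8.84, 9.13 and 8.82 TPM in its positive ones. Negative library 7 lay below the other 2 and the groups overlapped, with a difference of -0.24 ± 0.14 (SE, edgeR adjusted p = 0.244) that became -0.41 (edgeR adjusted p = 0.0406) without library 7. The mean of the 5 Adora2a differences was -0.36 ± 0.07 (SE, edgeR adjusted p = 1.73e-05), of which only that in Th17 was called. The 5 differences were unequal (edgeR adjusted p = 9.72e-05).

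In both compartments Adora2a ranked Th1, Tr1, pTh17, Th2 and Th17. Th1 exceeded Tr1 by 1.16 ± 0.13 (SE, edgeR adjusted p = 3.94e-09) among negative and by 1.16 ± 0.14 (SE, edgeR adjusted p = 4.31e-09) among positive libraries. Tr1 and pTh17 did not differ beyond their spread, at 0.12 ± 0.14 (SE, edgeR adjusted p = 0.490) and 0.22 ± 0.15 (SE, edgeR adjusted p = 0.204). The other steps passed, the last of them, Th2 over Th17, being 0.46 ± 0.16 (SE, edgeR adjusted p = 0.00987) among negative libraries, where the mean TPM of 10.5 and 10.1 were close, and 1.53 ± 0.17 (SE, edgeR adjusted p = 5.66e-10) among positive ones. The Th17 positive group had the lowest A2a receptor transcript (3.65 ± 0.486 TPM, SD, n = 3) together with the highest Nt5e (198 ± 9.88 TPM, SD, n = 3).

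P2rx7, the ATP-gated channel, was high in Th1 and Th2 cultures, where the compartments overlapped, and its differences in the other 3 cultures had mixed signs. In Th1 cultures, P2rx7 stood at 68.6, 76.3 and 82.9 TPM in its negative libraries and 68.4, 70.9 and 61.7 TPM in its positive ones. The groups overlapped, with a difference of -0.13 ± 0.09 (SE, edgeR adjusted p = 0.258). In Th2 cultures, P2rx7 stood at 68.4, 70.4 and 63.7 TPM in its negative libraries and 66.1, 63.1 and 62.3 TPM in its positive ones. Th2 was similar, at -0.14 ± 0.09 (SE, edgeR adjusted p = 0.279), although a fit of the 6 Th2 libraries alone gave -0.17 (edgeR adjusted p = 0.0210). In Tr1 cultures, P2rx7 stood at 4.56, 6.62 and 4.77 TPM in its negative libraries and 11.1, 10.9 and 10.2 TPM in its positive ones. In Tr1 every positive library was above every negative one, a rise of 1.02 ± 0.15 (SE, edgeR adjusted p = 1.28e-06, 2.03-fold). In Th17 cultures, P2rx7 stood at 9.12, 7.38 and 5.93 TPM in its negative libraries and 8.11, 9.77 and 10.2 TPM in its positive ones. The TPM ranges overlapped, whereas on scaled counts P2rx7 rose by 0.67 ± 0.14 (SE, edgeR adjusted p = 7.04e-05). With limma on log2 (TPM + 1) the Th17 difference was 0.30 (adjusted p = 0.0782). In pTh17 cultures, P2rx7 stood at 19.5, 16.8 and 11.6 TPM in its negative libraries and 12.4, 11.3 and 13.8 TPM in its positive ones. These ranges overlapped as well, and P2rx7 fell, at -0.59 ± 0.11 (SE, edgeR adjusted p = 0.000118) on scaled counts, against -0.30 (adjusted p = 0.167) with limma on log2 (TPM + 1). The tables sum 4 transcripts into the P2rx7 row.

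Mir8115, a microRNA gene that overlaps P2rx7 on the same strand, likewise has no row in the tables. The mean of the 5 P2rx7 differences, 0.17 ± 0.05 (SE, edgeR adjusted p = 0.00737), passed in edgeR but not with limma on log2 (TPM + 1), at 0.13 (adjusted p = 0.0899), and the 5 were unequal (edgeR adjusted p = 4.05e-09). Among negative libraries Th1 exceeded Th2 by 0.19 ± 0.09 (SE, edgeR adjusted p = 0.0612), and both were far above pTh17, with a step from Th2 of 2.13 ± 0.10 (SE, edgeR adjusted p = 6.74e-21). Th17 and Tr1 were lowest and 0.05 ± 0.16 (SE, edgeR adjusted p = 0.835) apart. Among positive libraries the steps from Th1 to Th2, 0.20 ± 0.09 (SE, edgeR adjusted p = 0.0450), and from Tr1 to Th17, 0.30 ± 0.13 (SE, edgeR adjusted p = 0.0418), passed narrowly, and pTh17 and Tr1 did not differ beyond their spread, at 0.12 ± 0.13 (SE, edgeR adjusted p = 0.432).

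**Figure D3:**
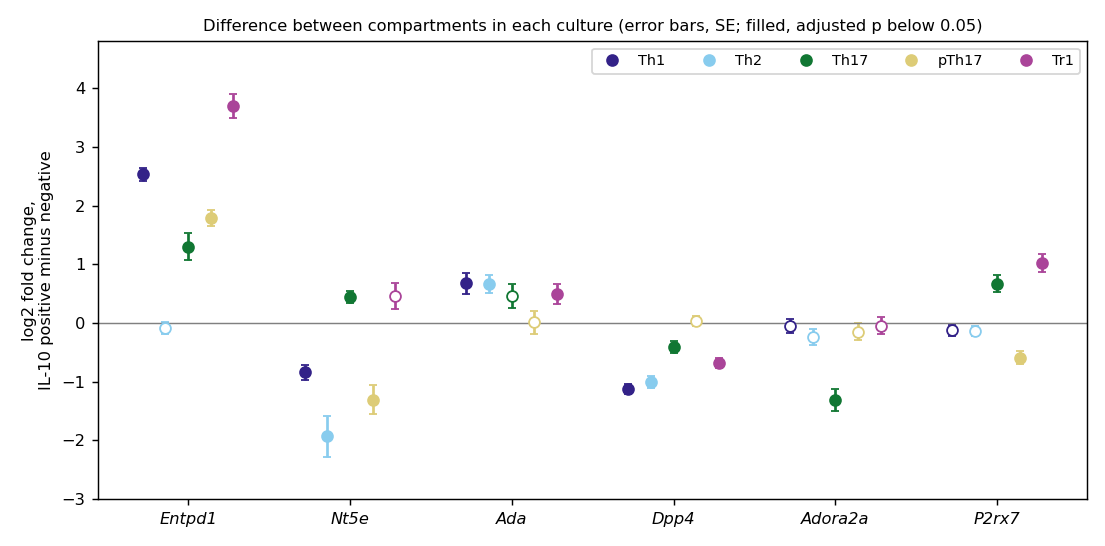
log2 fold change between compartments (IL-10 positive minus negative; points, error bars SE) of the 6 genes in the 5 cultures, filled where the edgeR adjusted p was below 0.05. Entpd1 reaches 3.69 in Tr1 and is at -0.09 in Th2, Nt5e and P2rx7 lie on both sides of 0, and Dpp4 is at or below 0.04 throughout.

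Counted by comparison, the 6 genes gave between 3 and 5 calls in a culture. In Th1, 4 of the 6 passed the test (Entpd1 and Ada higher, Nt5e and Dpp4 lower), where 43.8% of all 12611 genes tested were called. Entpd1 carried the largest of these differences. In Th2, 3 passed (Ada higher, Nt5e and Dpp4 lower), against 21.8% of all genes. In Th17, 5 passed (Entpd1, Nt5e and P2rx7 higher, Dpp4 and Adora2a lower), against 58.2%, and in pTh17, 3 passed (Entpd1 higher, Nt5e and P2rx7 lower), against 18.5%. In Tr1, 4 passed (Entpd1, Ada and P2rx7 higher, Dpp4 lower), against 34.7%. For the mean of the 5 differences all 6 passed (Entpd1, Ada and P2rx7 higher, Nt5e, Dpp4 and Adora2a lower), against 57.8%, and 5 of the 6 had unequal differences between cultures, against 60.7%. The cultures differed in all 6 genes among negative libraries, where 88.2% of all genes were called, and among positive libraries, where 92.2% were. Between pairs of cultures within a compartment, whose steps are given above gene by gene, from 39.4% to 71.8% of all genes were called. With 6 genes these counts describe the genes and set them apart from no others.

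Beyond these 6, 85 other genes were listed for purine handling and adenosine signalling, by role or, for P2X and P2Y receptors, by symbol. Of these, 62 had enough counts to be tested. In Th1, 20 were higher and 18 lower in the positive compartment, in Th2 12 and 10, in Th17 15 and 15, in pTh17 5 and 7, and in Tr1 12 and 15. Of all genes tested, 23.5% were called higher and 20.4% lower in Th1, 12.3% and 9.49% in Th2, 29.2% and 28.9% in Th17, 10.1% and 8.33% in pTh17, and 20.5% and 14.2% in Tr1, and the counts of each role list below are to be read beside these shares. The median difference of the tested genes was -0.02 in Th1, 0.04 in Th2, 0.03 in Th17, -0.02 in pTh17 and 0.07 in Tr1, and over all genes it was -0.02, 0.01, -0.04, 0.00 and 0.05 in the same order. The genes named below are the up to 3 of each list with the highest mean TPM, and the heat map of these genes gives all their differences.

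Among other enzymes that break down extracellular nucleotides, 6 of 9 were tested, and 3 were called in Th1, 1 in Th2, 2 in Th17, 2 in pTh17 and 3 in Tr1. Cd38, an ectoenzyme that consumes NAD, resembled Entpd1 in that it rose in 4 cultures, but these included Th2 and left out Th17. It rose by 1.54 ± 0.19 (SE, edgeR adjusted p = 3.17e-08) in Tr1, by 1.20 ± 0.17 (SE, edgeR adjusted p = 8.21e-07) in Th2, by 1.11 ± 0.15 (SE, edgeR adjusted p = 3.98e-07) in pTh17 and by 0.90 ± 0.10 (SE, edgeR adjusted p = 3.35e-09) in Th1. Its highest mean levels were in Th1, at 36.96 TPM in negative and 67.4 TPM in positive libraries, and in Th17 the difference was 0.08 ± 0.14 (SE, edgeR adjusted p = 0.631). Acpp, an acid phosphatase whose transmembrane form can also turn AMP into adenosine, had its highest levels in Th17, as Nt5e did, at 32.7 TPM in negative and 52.4 TPM in positive libraries, a rise of 0.79 ± 0.11 (SE, edgeR adjusted p = 1.38e-07). It fell in Th1, at -1.56 ± 0.16 (SE, edgeR adjusted p = 3.49e-10) and in Tr1, at -0.59 ± 0.14 (SE, edgeR adjusted p = 0.000813). Enpp1, which cuts ATP to AMP and pyrophosphate, rose by 0.97 ± 0.15 (SE, edgeR adjusted p = 7.01e-07) in Th17, by 0.47 ± 0.13 (SE, edgeR adjusted p = 0.00527) in Tr1 and by 0.34 ± 0.12 (SE, edgeR adjusted p = 0.0209) in Th1. In pTh17 it fell, at -0.32 ± 0.11 (SE, edgeR adjusted p = 0.0390).

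Of 11 intracellular ENTPD enzymes and nucleotidases, 9 were tested. In Th1 3 were higher and 2 lower, in Th2 3 and 1, in Th17 3 and 1, and in Tr1 2 and 2. The cytosolic pyrimidine nucleotidase Nt5c3 rose most in Th2, by 0.73 ± 0.07 (SE, edgeR adjusted p = 1.58e-10). Nt5c, a deoxyribonucleotidase, rose by 0.40 ± 0.09 (SE, edgeR adjusted p = 0.000211) in Th1 and 0.32 ± 0.09 (SE, edgeR adjusted p = 0.00769) in Tr1. Nt5c3l, the older symbol of Nt5c3b, rose in Th17 by 0.52 ± 0.08 (SE, edgeR adjusted p = 1.84e-06).

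Of 10 genes that use or salvage adenosine, 9 were tested, with 3 higher and 3 lower in Th1, 2 and 3 in Th2, 3 and 3 in Th17, 1 and 1 in pTh17 and 3 and 2 in Tr1. Adk, the kinase that returns adenosine to AMP, had its highest levels in Th2, at 419 TPM in negative and 391 TPM in positive libraries, with a difference there of -0.11 ± 0.09 (SE, edgeR adjusted p = 0.423). In Th1 it fell, at -1.92 ± 0.11 (SE, edgeR adjusted p = 7.03e-18), with 108 TPM in negative and 28.2 TPM in positive libraries. It also fell in Tr1, at -1.12 ± 0.10 (SE, edgeR adjusted p = 3.35e-11), and in pTh17, at -0.57 ± 0.12 (SE, edgeR adjusted p = 0.000361). Ahcy, which splits S-adenosylhomocysteine into adenosine and homocysteine inside the cell, rose in all 5 cultures, most in Th1, at 185 TPM in negative and 505 TPM in positive libraries and 1.48 ± 0.06 (SE, edgeR adjusted p = 7.75e-23), and least in Th2, by 0.52 ± 0.05 (SE, edgeR adjusted p = 1.36e-09). Ahcyl2, a relative of that enzyme, fell in Th2, at -0.90 ± 0.09 (SE, edgeR adjusted p = 1.48e-10), in Th17, at -0.67 ± 0.11 (SE, edgeR adjusted p = 3.76e-06) and in Tr1, at -0.58 ± 0.14 (SE, edgeR adjusted p = 0.00112).

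Of 7 nucleoside transporters 5 were tested. Slc29a1, the equilibrative transporter ENT1 that carries adenosine across the membrane, was highest in the positive libraries of Th17, going from 74.7 TPM in negative to 218 TPM in positive libraries, a rise of 1.70 ± 0.08 (SE, edgeR adjusted p = 4.01e-20). It fell in Th1, at -0.50 ± 0.09 (SE, edgeR adjusted p = 1.30e-05) and in pTh17, at -0.33 ± 0.08 (SE, edgeR adjusted p = 0.00336). Slc28a2, a sodium-driven nucleoside importer, fell in 4 cultures, at -0.72 ± 0.07 (SE, edgeR adjusted p = 6.43e-11) in Th17, at -0.59 ± 0.08 (SE, edgeR adjusted p = 4.15e-07) in pTh17, at -0.50 ± 0.07 (SE, edgeR adjusted p = 2.69e-07) in Th1 and at -0.42 ± 0.07 (SE, edgeR adjusted p = 3.73e-05) in Th2. In Tr1, where its level was highest, at 134 TPM in negative and 127 TPM in positive libraries, the difference was -0.01 ± 0.07 (SE, edgeR adjusted p = 0.940). Slc29a3, the intracellular ENT3, fell, at -0.51 ± 0.13 (SE, edgeR adjusted p = 0.000837) in Th17 and -0.33 ± 0.13 (SE, edgeR adjusted p = 0.0460) in Th1.

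The other adenosine receptors had lower levels than Adora2a. Adora2b, the low-affinity A2b receptor, was highest in Th2, at 3.83 TPM in negative and 4.39 TPM in positive libraries. Adora2a stood at means of 10.5 and 8.93 TPM there. Adora2b was listed at 0 in all 3 Th17 negative libraries and had 8 counts in the 3 Th17 positive ones together. It had 1 count in the Th1 negative group, so no fold is given for these cultures. Adora1 and Adora3 had too few counts to be tested and did not exceed group means of 0.257 and 1.14 TPM.

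Of 14 other genes with P2X or P2Y receptor symbols, 6 were tested, with 4 called in Th1, 3 in Th2 and 1 in Tr1. P2rx4, a second ATP-gated channel, fell in Th1, at -0.95 ± 0.11 (SE, edgeR adjusted p = 4.44e-09) and in Tr1, at -0.35 ± 0.11 (SE, edgeR adjusted p = 0.0104), and rose in Th2 by 0.27 ± 0.10 (SE, edgeR adjusted p = 0.0431). P2ry14, a receptor for UDP-sugars, rose in Th1 by 1.39 ± 0.30 (SE, edgeR adjusted p = 0.000243) and in Th2 by 1.08 ± 0.34 (SE, edgeR adjusted p = 0.0194). P2ry10, listed by its symbol and not as a nucleotide receptor, was not called in any culture, its differences lying between -0.21 and 0.09.

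Of 9 genes of ATP release and partners of P2X7, 6 were tested. Art2b, the ADP-ribosyltransferase that can trigger P2X7 when NAD is present, fell in all 5 cultures. In Th1 it had 125 TPM in negative and 28.02 TPM in positive libraries, a difference of -2.12 ± 0.16 (SE, edgeR adjusted p = 4.50e-14). The differences were -2.22 ± 0.47 (SE, edgeR adjusted p = 0.000564) in pTh17, where the positive libraries had 3 to 4 counts each, -1.46 ± 0.26 (SE, edgeR adjusted p = 1.13e-05) in Th17, -1.10 ± 0.17 (SE, edgeR adjusted p = 1.56e-06) in Tr1 and -0.41 ± 0.14 (SE, edgeR adjusted p = 0.0276) in Th2. Art2b and P2rx7 moved in opposite directions in Tr1 and Th17, and both fell in pTh17. Gja1, the gap junction protein connexin 43 whose hemichannels can release ATP, rose in all 5 cultures, by 2.43 ± 0.30 (SE, edgeR adjusted p = 2.37e-08) in Tr1, 2.35 ± 0.12 (SE, edgeR adjusted p = 5.85e-19) in Th17 and 2.16 ± 0.12 (SE, edgeR adjusted p = 6.83e-18) in Th1. In Th2 and pTh17 the rises were 0.68 ± 0.15 (SE, edgeR adjusted p = 0.000954) and 0.54 ± 0.10 (SE, edgeR adjusted p = 0.000108), the latter from the highest level of any culture, 83.1 TPM in negative and 127 TPM in positive libraries. Adam10, a protease, rose by 0.37 ± 0.08 (SE, edgeR adjusted p = 0.000180) in Th1.

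Downstream of the adenosine A2a receptor, 16 of 17 genes of cyclic AMP signalling were tested, with 4 higher and 6 lower in Th1, 1 and 3 in Th2, 2 and 6 in Th17, 1 and 2 in pTh17 and 1 and 7 in Tr1. Gnas, the stimulatory G protein subunit to which the receptor couples, rose by 0.78 ± 0.08 (SE, edgeR adjusted p = 3.38e-10) in Th1 and 0.34 ± 0.08 (SE, edgeR adjusted p = 0.000833) in Th17, the culture in which Adora2a fell. Prkacb, a catalytic subunit of protein kinase A, fell in 4 cultures, at -0.50 ± 0.07 (SE, edgeR adjusted p = 4.71e-07) in Th1, -0.49 ± 0.07 (SE, edgeR adjusted p = 2.88e-06) in Th2, -0.39 ± 0.07 (SE, edgeR adjusted p = 1.62e-05) in Th17 and -0.30 ± 0.07 (SE, edgeR adjusted p = 0.00111) in Tr1. Prkar1a, a regulatory subunit of that kinase, rose in Th1 by 0.14 ± 0.05 (SE, edgeR adjusted p = 0.0308). Of 5 relatives of Dpp4, 4 were tested, and 2 of them were called in Th1, both higher. Prep, a cytosolic prolyl peptidase, rose in all 5 cultures, by 0.93 ± 0.08 (SE, edgeR adjusted p = 1.66e-12) in Th17 and by between 0.29 and 0.49 elsewhere. Dpp9 rose in Th1 by 0.59 ± 0.11 (SE, edgeR adjusted p = 1.45e-05) and in Tr1 by 0.31 ± 0.11 (SE, edgeR adjusted p = 0.0312), and Dpp8 fell in Th17, at -0.29 ± 0.11 (SE, edgeR adjusted p = 0.0241) and in Tr1, at -0.30 ± 0.12 (SE, edgeR adjusted p = 0.0430).

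**Figure D4:**
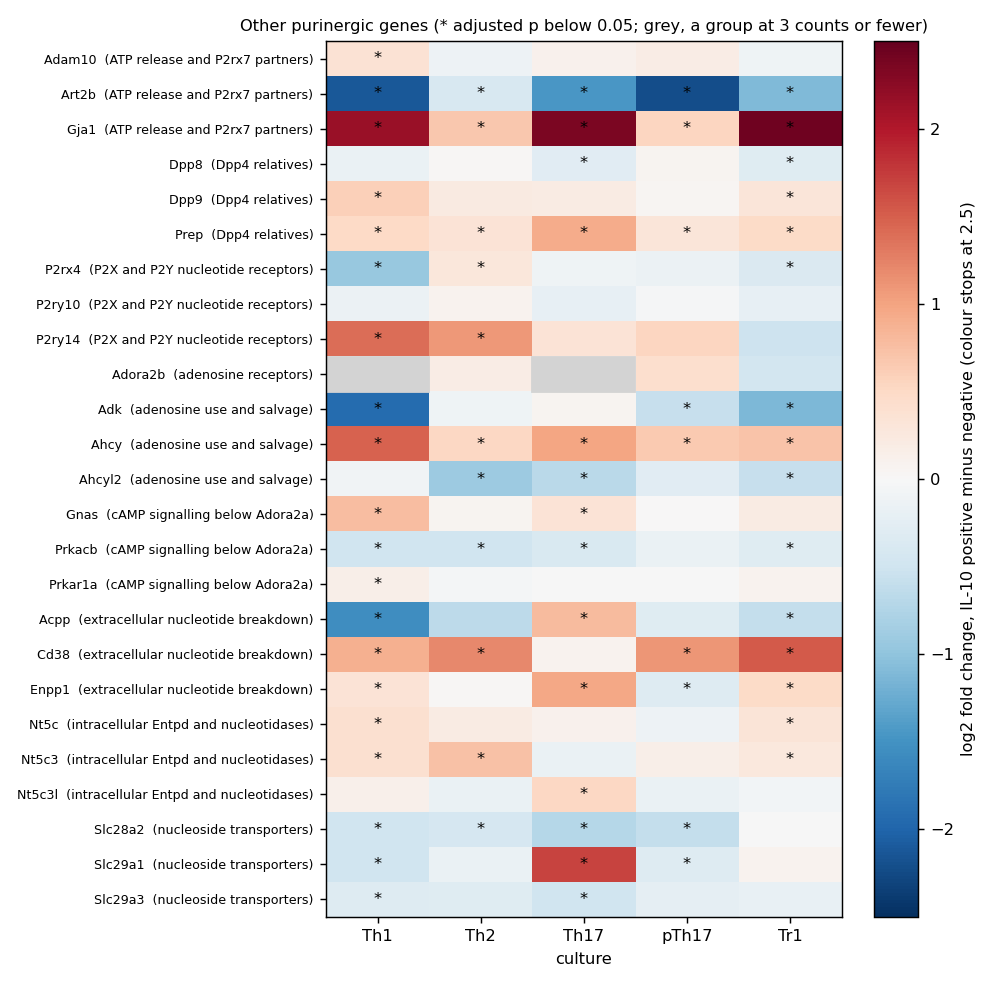
log2 fold change (IL-10 positive minus negative, colour scale to 2.5 either way) of 25 other genes of the lists (rows) in the 5 cultures (columns). Stars mark an edgeR adjusted p below 0.05 and grey marks a group with 3 counts or fewer. Art2b is blue and Gja1 and Ahcy are red in every culture, while Slc29a1 and Acpp are red in Th17 and blue or pale elsewhere.

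For each gene, the 3 genes with the most similar pattern were taken from 8850 genes by Pearson's r of the group mean log2 CPM over the 10 groups. For Entpd1 these were Clic1 (0.969), Mrps21 (0.957) and Copz1 (0.955), and for Nt5e they were Endod1 (0.953), Aqp3 (0.950) and Pde5a (0.936). For Ada they were Serpina3g (0.928), H13 (0.923) and Faim (0.920), and for Dpp4 they were Ppcdc (0.977), Zfp960 (0.976) and Lypd6b (0.963). Adora2a was most like Rusc1 (0.972), Gimap5 (0.962) and Higd2a (0.961), and P2rx7 most like Slc25a11 (0.947), Il2rb (0.945) and Mrpl10 (0.943). With 10 points and 8850 genes searched, values this high describe the likeness and nothing more. Among the 6 genes themselves Entpd1 and P2rx7 were the most alike (0.86). Entpd1 and Nt5e had the lowest r (-0.54), followed by Nt5e and Ada (-0.48), and these values were not tested. The 10 points are not independent, since both compartments of a culture are among them, and library depth differed between groups.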

How the data were processed

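RNA was measured in 30 libraries, 3 in each of 10 groups, made with an adaptation of SMART-Seq2 from 2000 lysed cells each, per the labels' protocols. Each library has its own table, in which the authors deposited expected counts (estimates that can be fractional) and TPM per gene, per the file headers; FPKM was not used. RSEM and mm10 are named in the submitters' processing notes, while the aligner and the RSEM version were not given in the sources used here. Expected counts were rounded. With edgeR 4.0.16 (R 4.3.3), filterByExpr left 12611 of 23420 genes, TMM set the scaling, and the quasi-likelihood test used a single fit with 10 group means over the 30 libraries, without covariates. The p-values were two-sided, adjusted by Benjamini-Hochberg over all 12611 genes, and called below 0.05; pairs of cultures were adjusted within each contrast. Each standard error is the absolute log2 fold change divided by the root of F. The groups' replicate numbers come from the titles. Deviations of same-numbered libraries of a culture correlated at -0.05 to 0.05 over 15 pairs, so no effect shared by a number was seen. This cannot exclude that libraries of the same number came from the same culture, and the main fit did not pair them.

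Named genes were the 6 members, up to 3 tested genes with the highest mean TPM in each of 9 role lists, the 3 genes most like each member among genes of at least 5 mean CPM, Il10, Foxp3 and marker genes. Members and lists were chosen with earlier results of these data known. A B cell marker of the list is not reported here and was left out of its sums and counts. Symbols of 3 listed genes were matched through older names. The test was also run on simulated counts in which all but a small set of genes had equal means in every group. Far more genes were called in these data, so that run does not check the test or its scaling under such conditions. Alternatives were DESeq2 1.42.0 and its size factors, limma 3.58.1 on log2 TPM with pseudocounts of 1 and 0.1, no filter on low counts, fits of 6 libraries, the replicate number as a block, and each library left out in turn. Positions come from GENCODE vM21 on GRCm38, the assembly that mm10 names, and promoter windows from RefSeq (GRCm38.p6).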

Additional observations from a re-analysis of the deposited data

Results flagged for a closer look

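The IL-10 positive minus negative difference was tested for equality over the 5 cultures, and the genes in which it differed are given here with the edgeR adjusted p of that test (5 of 6 members, where 60.7% of all genes passed). The members were Entpd1 (2.33e-18), Dpp4 (9.94e-10), Nt5e (1.02e-09), P2rx7 (4.05e-09) and Adora2a (9.72e-05). Among other genes that handle extracellular nucleotides or adenosine were Acpp (1.36e-11), Enpp1 (2.79e-06), Cd38 (8.58e-06), Adk (1.54e-14), Ahcy (1.11e-12) and Ahcyl2 (3.08e-05). Of the nucleotidases, Nt5c3 (1.08e-07), Nt5c3l (1.52e-05) and Nt5c (0.00336) differed, and of the transporters, Slc29a1 (2.14e-18) and Slc28a2 (2.82e-06). Gja1 (5.61e-13), Art2b (1.73e-07), P2rx4 (2.42e-07) and Adam10 (0.000864) differed among genes of ATP release and sensing. Gnas (2.08e-06) and Prkacb (0.0304) differed in cyclic AMP signalling, and Prep (7.15e-05) and Dpp9 (0.0271) among relatives of Dpp4. Groups of 3 libraries are too small for the test of a single stray library.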

How the results depend on the processing

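Under 7 alternatives (6 for the mean and equality), the direction and side of the threshold held for 229 of 246 log2 fold changes of the 6 genes, and for 1064 of 1080 with 1 library left out. Signs turned only in differences that were not called: Adora2a in Th1 became 0.00584 with size factors by median of ratios, 0.0135 with no filter and 0.00714 with DESeq2, and Ada in pTh17 became -0.00205 with no filter. With single libraries left out, these ran from -0.171 to 0.0285 and from -0.260 to 0.202, Dpp4 in pTh17 from -0.0434 to 0.0925 and Adora2a in Tr1 from -0.112 to 0.0360. In Th17, 3 of the 6 genes were called with limma on log2 (TPM + 1) or (TPM + 0.1), against 5; the cause was not tested. The same scales moved the split of all called genes in Th17 to 2987 higher and 4499 lower or 2927 and 4366 (3688 and 3650 in edgeR), with a shift of the median gene of -0.13 for the second, and in pTh17 to 1624 and 670 or 1300 and 614 (1277 and 1050). With no filter the Tr1 split was 2058 and 2340 (2591 and 1786). With the replicate block, the calls were 5467 genes in Th1, 2777 in Th2, 7246 in Th17, 2322 in pTh17 and 4315 in Tr1, all close to the fit without it, and of the members Ada in Th17 was then called (0.46, adjusted p = 0.0438). Of 15 negative libraries 7 correlated best with their own number. With limma on log2 (TPM + 0.1), P2rx7 gave 0.33 in Th17 (adjusted p = 0.0733), -0.32 in pTh17 (0.198) and 0.15 for the mean (0.0652), and Ada in Tr1 gave 0.40 (0.0819); with no filter Ada in Tr1 gave 0.39 (0.131). Of the 6 genes' groups behind called differences, each library of Nt5e in Th2 positive (5 to 12) and of Entpd1 in Tr1 negative (5 to 28) and Th17 negative libraries (13 to 23) rests on under 30 counts, as do some of Nt5e in pTh17 positive (18 to 35) and Th2 negative ones (27 to 44), and PCR copies are not independent molecules.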
